A study of Mus musculus with 40 samples.

Results

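Bone marrow of 5 DBA/2 mice taken 2 days after cyclophosphamide was compared with bone marrow of 5 untreated mice, using the arrays labelled as control and as 2 days after treatment. These are 20 of the 40 arrays and 10 of the 20 mice of the series, which also holds 5 mice each at 1 and 5 days. DBA/2 is an inbred laboratory strain, the treated mice had 83 mg/kg of the drug by intraperitoneal injection, and the controls are described as untreated, with no injection of vehicle named. Every mouse gave 2 arrays, called technical replicates in the labels, and these were averaged so that n counts mice. RNA of each mouse carried Cy5 and a common reference carried Cy3. The reference is described as pooled marrow of untreated mice in 1 field of the labels and as marrow of treated mice in another, and it cancels in every difference between groups. The sources used here give neither the age nor the sex of the mice.

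Cyclophosphamide is a prodrug that the liver activates, and its product cross-links the strands of DNA. Damaged cells stop in the cell cycle through p53 and its target p21, or die, and marrow is sensitive because most of its granulocyte, erythroid and B cell precursors are dividing. Neutrophils make the contents of their late granules at later stages of maturation than those of their primary granules. Resident macrophages of the marrow take up dying cells and the nuclei that erythroblasts expel.

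Of 6231 genes and unnamed probes with a value in at least 3 mice of each group, 991 (15.9%) differed at an adjusted p under 0.05 in limma with Benjamini-Hochberg adjustment, and these are the features described as called. Of these, 506 were higher on day 2 (8.12%) and 485 lower (7.78%), and 60 (0.963%) differed at least 2-fold, 21 upwards and 39 downwards. The median difference over everything tested was -0.01 on the log2 scale, and the median size of a called difference was 0.54. The values of the 2 groups did not overlap for 1170 features (18.8%). Without day 2 mouse 1 the count of calls was 586, with 302 higher and 284 lower, and without day 2 mouse 3 the lower count was 312. A gene symbol was known for 4579 of the features tested, of which 365 were called higher and 386 lower. Values are log ratios to the reference, taken as base 2 because no source used here states the base, and a difference is the day 2 mean minus the control mean with its model standard error. The labels number the mice as biological replicates.

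**Figure D1:**
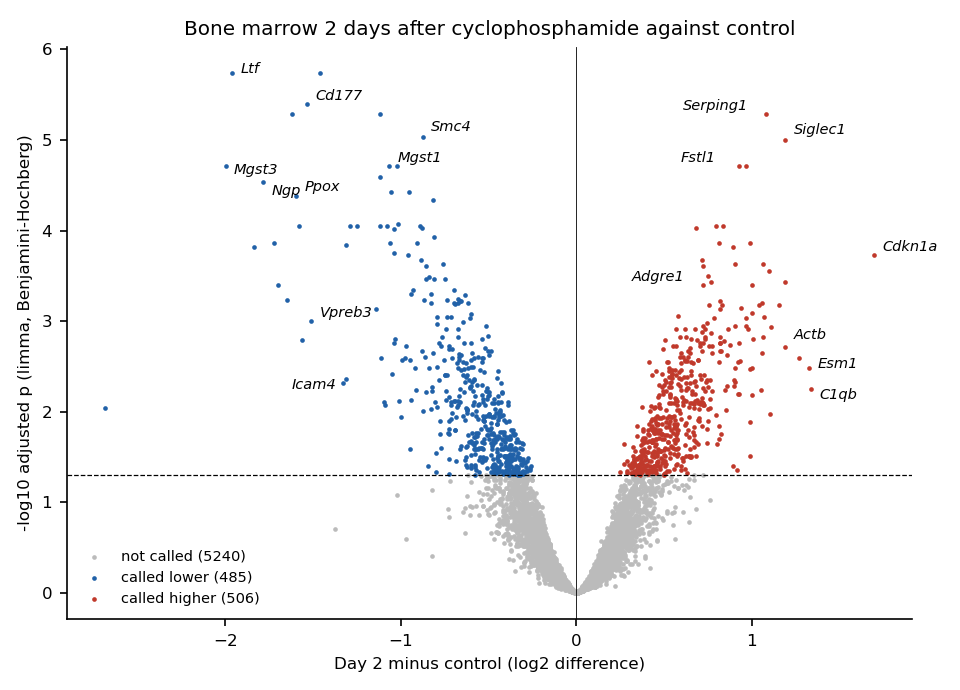
Difference between day 2 and control on the log2 scale (x axis) against -log10 of the limma adjusted p (y axis) for the 6231 genes and unnamed probes tested, with the 506 called higher in red, the 485 called lower in blue and the rest in grey. The dashed line is an adjusted p of 0.05, and 39 falls but 21 rises are called and at least 2-fold.

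A mouse had values for 4654 to 8284 probes in the control group and 5043 to 7923 on day 2. Both arrays of the same mouse had a correlation over probes of 0.772 to 0.857 in control and 0.758 to 0.951 on day 2, and control mouse 4 was least like the other mice of its group, with a mean correlation of 0.230. Without it 773 features were called. Among the defining markers of marrow cell types, 3 of 7 for granulocytes, 3 of 6 for erythroid cells, 5 of 6 for macrophages, 3 of 7 for B cells and 3 of 4 for megakaryocytes were measured in enough mice. All 5 macrophage markers measured were called higher, as were 2 of the megakaryocyte, 2 of the 4 endothelial, 1 stromal (Cxcl12) and 1 adipocyte (Adipoq) markers. All 3 granulocyte markers and 2 B cell markers were called lower, and no erythroid marker was called. The lack of a call says little for Hba-a1 and Klf1. The probe of Hba-a1, with a difference of 0.33, looked saturated on 7 control and 4 day 2 arrays, judged by a value shared among many probes of an array. Klf1 had values in 3 mice a group. Gata1, the other erythroid marker measured, had neither limit and was at -0.24 (adjusted p = 0.338). None of the 4 T cell markers was measured in enough mice, and the 1 of 3 skeletal muscle markers that was did not pass the test. The part of cell type shares in the differences of other genes was not tested.

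The largest rise was in a gene of the response to DNA damage. Cdkn1a, the gene of the inhibitor p21, which arrests the cell cycle, stood at -0.14, 0.06, -0.12, -0.16 and -0.07 in control mice 1 to 5 and at 1.17, 0.94, 1.60, 2.31 and 2.03 in day 2 mice 1 to 5. All 5 treated mice lay far above all controls, and mice 4 and 5 were the highest. The difference was 1.69 ± 0.26, or 3.24-fold (adjusted p = 0.000184), the largest rise of any gene with a symbol. Of the 13 p53 targets tested, 5 rose and 0 fell, against 8.12% of all features called higher, with a median of 0.27 against -0.01 for all features. The death receptor Tnfrsf10b rose by 0.77 ± 0.15 (adjusted p = 0.00185) and Zmat3, an RNA-binding protein, by 0.43 ± 0.12 (adjusted p = 0.0142). Ddit4, an inhibitor of mTOR, rose by 0.89 ± 0.29 (adjusted p = 0.0394), but its call was lost without any of 6 mice taken singly, namely control mice 1, 3 and 4 and day 2 mice 3, 4 and 5, with an adjusted p of up to 0.0999. Without control mouse 1, control mouse 4 or day 2 mouse 3 the list had 3 rises in place of 5. Among targets without a call, Btg2, an antiproliferative gene, was at -0.44 ± 0.16 (adjusted p = 0.0698) and Phlda3, an inhibitor of Akt, at 0.27 ± 0.12 (adjusted p = 0.163), both in fewer than 5 mice of a group. Of 15 effectors and regulators of cell death, 0 rose and 3 fell (7.78% of all features), and the initiator caspase Casp2 was the member whose fall held in all 24 alternative analyses (-0.45 ± 0.11, adjusted p = 0.00670). The other 2 calls were lost without control mouse 4, and 5 members were called lower with the control and day 2 mice fitted alone, with array weights or with the mouse as a random block.

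Genes of cell division were lower. Smc4, a subunit of condensin, which compacts chromosomes, had values of -0.04, -0.09, 0.09, 0.12 and -0.09 in control mice 1 to 5 and -0.88, -0.66, -1.07, -1.01 and -0.77 in day 2 mice 1 to 5. The groups were well apart, and the treated mice lay close together. The difference was -0.87 ± 0.10 (adjusted p = 9.32e-06). Nusap1, a microtubule-binding protein of the spindle, stood at -0.09, -0.26, -0.29, -0.25 and -0.49 in control and -1.49, -1.25, -1.59, -1.31 and -0.82 on day 2. No treated mouse reached the lowest control, and mouse 5 came nearest. It fell by 1.02 ± 0.14 (adjusted p = 8.42e-05), the largest change in the list. Of 27 genes of mitosis and cytokinesis tested, 14 fell and 0 rose, against 7.78% of all features called lower, and the median was -0.38. Of the 14, 11 kept their call, which here and below means in each of the 24 alternatives in which the gene was tested. Among the 14 were Cks2, a cofactor of cyclin-dependent kinases, which fell by 1.00 ± 0.21 (adjusted p = 0.00265), the kinetochore proteins Cenpk (-0.89 ± 0.13, adjusted p = 8.92e-05) and Spc24 (-0.88 ± 0.18, adjusted p = 0.00215, 4 control mice), Cdca8 of the chromosomal passenger complex (-0.79 ± 0.20, adjusted p = 0.00892), the spindle assembly factor Tpx2 (-0.77 ± 0.15, adjusted p = 0.00187) and Ect2, which directs the cleavage furrow (-0.83 ± 0.15, adjusted p = 0.000628). In bulk marrow, fewer cells of a type and less RNA per cell cannot be told apart, here or in what follows.

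Many promoters of these genes share short elements, which is a description of the sequences and not of binding. In RefSeq promoters (GRCm38.p6) of 250 bases before to 50 after the start, the letters CCAAT on either strand were in 75.0% of the 20 mitosis genes with an entry, against 38.6% of the 3696 tested genes with one and 37.9% of all 27025 promoters. The cell cycle homology region, searched as TTTGAA on both strands, was in 55.0% of the mitosis genes, 481 of the 3696 tested genes and 18.1% of all promoters. The shares were 72.7% and 54.5% among the 11 called members with a promoter entry, and across all called genes they were near those of the genes tested, with CCAAT in 39.5% of genes called higher and 41.4% of genes called lower. Of the 11, 5 had both elements. The pair of these with the largest falls, chosen after the matches had been counted, is shown first, then Nusap1, the member with the largest fall, in which none of the letters searched were found. Capitals mark CCAAT or its reverse complement ATTGG and TTTGAA. In Ect2, CCAAT begins 96 and 55 bases before the start and TTTGAA 114 bases before it, each with 1 further match after the start. In Cdca8, ATTGG begins 85, 51 and 11 bases before the start and once after it, where it overlaps TTTGAA by its first base.
Ect2 (chr3:27153829-27154128, minus strand): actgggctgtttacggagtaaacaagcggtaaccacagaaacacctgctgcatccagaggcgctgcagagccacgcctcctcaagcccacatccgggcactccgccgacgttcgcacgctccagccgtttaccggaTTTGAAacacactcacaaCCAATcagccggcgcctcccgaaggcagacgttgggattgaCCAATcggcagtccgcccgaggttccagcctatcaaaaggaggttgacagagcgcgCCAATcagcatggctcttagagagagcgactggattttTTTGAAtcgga
Cdca8 (chr4:124936868-124937167, minus strand): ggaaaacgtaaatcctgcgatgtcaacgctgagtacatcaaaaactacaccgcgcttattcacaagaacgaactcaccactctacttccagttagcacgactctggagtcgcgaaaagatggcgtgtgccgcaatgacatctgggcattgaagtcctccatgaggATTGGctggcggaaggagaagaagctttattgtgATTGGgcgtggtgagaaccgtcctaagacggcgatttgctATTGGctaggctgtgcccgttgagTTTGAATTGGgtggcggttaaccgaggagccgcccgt
Nusap1 (chr2:119618048-119618347, plus strand): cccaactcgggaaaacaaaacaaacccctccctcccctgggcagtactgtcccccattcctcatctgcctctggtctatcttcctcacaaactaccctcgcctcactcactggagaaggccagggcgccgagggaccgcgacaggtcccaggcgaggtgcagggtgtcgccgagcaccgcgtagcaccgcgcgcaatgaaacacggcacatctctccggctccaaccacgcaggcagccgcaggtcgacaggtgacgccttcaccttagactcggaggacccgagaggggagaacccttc

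DNA replication genes were lower as well. Pcna, the sliding clamp of the replication fork, stood at 0.17, 0.01, 0.08, 0.06 and -0.07 in control mice 1 to 5 and -0.84, -0.74, -1.09, -0.54 and -0.59 in day 2 mice 1 to 5. The groups did not overlap, and mouse 3 was the lowest. The difference was -0.81 ± 0.13 (adjusted p = 0.000342). Of 34 genes of replication and nucleotide supply tested, 11 fell and 0 rose (median -0.29), against 7.78% of all features called lower, and 9 of the 11 kept the call. The largest fall was in Asf1b, a chaperone that hands new histones to the replicated strands (-1.25 ± 0.18, adjusted p = 8.92e-05). The fork protein Gins4 (-0.59 ± 0.14, adjusted p = 0.00582), the histone mRNA binder Slbp (-0.58 ± 0.14, adjusted p = 0.00769) and the thymidylate enzymes Tyms (-0.64 ± 0.14, adjusted p = 0.00395) and Tk1 (-0.63 ± 0.14, adjusted p = 0.00410) fell by less. Among the members without a call, Cad, which starts pyrimidine synthesis, was at 0.38 ± 0.14 (adjusted p = 0.0726) and Shmt2, which supplies one-carbon units in mitochondria, at 0.43 ± 0.15 (adjusted p = 0.0621), while the ribonucleotide reductase subunit Rrm2 was at -0.55 ± 0.21 (adjusted p = 0.0763, 4 mice a group). The E2F letters TTTGGCGC or TTTCCCGC, on both strands, were in 12.9% of the 31 replication genes with a promoter entry and in 2.41% of tested genes.

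Chromatin genes were lower in part. H2ax, a variant histone that is phosphorylated around DNA breaks, changed by -1.06 ± 0.14 (adjusted p = 3.73e-05), with day 2 mouse 5, at -0.19, higher than the other 4, which lay between -0.86 and -0.74. The nucleosome-binding protein Hmgn2 (-1.29 ± 0.18, adjusted p = 8.92e-05) and Dek (-1.08 ± 0.15, adjusted p = 8.92e-05), a chromatin protein abundant in progenitors, fell by more than 2-fold as well. Of 30 genes of histones and chromatin 7 fell (7.78% of all features) and 1 rose, and 5 of the 7 falls kept the call. The lists share members: of these 5, Asf1a and Asf1b were also counted with replication, and H2ax is also counted with repair. The rise was in Hdac7, a class II histone deacetylase (0.85 ± 0.21, adjusted p = 0.00964), which had values in 3 control mice and was therefore not tested when control mouse 1, 2 or 5 was left out. Of 16 DNA repair genes 4 fell (7.78% of all features) and 0 rose, and H2ax was the 1 that kept its call. The repair count was 1 without day 2 mouse 1 and 2 without control mouse 1, 3 or 5, without day 2 mouse 3 or with the replicate number as a block.

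Late neutrophil transcripts were among the largest falls. Ltf, which encodes lactoferrin of the specific granules, stood at -0.05, -0.23, 0.20, 0.20 and 0.07 in control mice 1 to 5 and -1.80, -1.65, -1.90, -1.98 and -2.30 in day 2 mice 1 to 5. The treated mice lay close together and far below every control, and mouse 5 was the lowest. Ltf fell by 1.96 ± 0.19, or 3.90-fold (adjusted p = 1.82e-06). Chil1, a chitinase-like protein of specific granules, was at 0.18, 0.05, 0.32, 0.21 and -0.02 in control and -1.22, -0.71, -0.56, -1.42 and -0.97 on day 2. Mice 1 and 4 were the lowest, and no treated mouse overlapped a control. It fell by 1.12 ± 0.14 (adjusted p = 2.54e-05). Ngp, a granule protein of the cathelicidin family, fell by 1.79 ± 0.23 (adjusted p = 2.94e-05). Its probe looked saturated on 6 of 10 control arrays and 0 of 10 day 2 arrays, judged by a value shared among many probes of an array, and without such values too few control mice were left to test it. The surface protein Cd177 fell by 1.53 ± 0.16 (adjusted p = 4.04e-06), S100a9, a subunit of calprotectin, by 1.56 ± 0.29 (adjusted p = 0.00161, 4 control and 3 day 2 mice) and Anxa1, which restrains neutrophil migration, by 1.10 ± 0.27 (adjusted p = 0.00781). The Anxa1 probe looked saturated on 3 control arrays, and without such values the difference was -1.33.

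Of the 20 late neutrophil genes tested, 13 fell (7.78% of all features) and 0 rose, the median was -0.65, and 9 of the 13 kept the call. The fall extended to the oxidase that makes superoxide: its membrane subunit Cybb, which other phagocytes share, changed by -1.11 ± 0.23 (adjusted p = 0.00257) and its cytosolic subunit Ncf1 by -0.83 ± 0.21 (adjusted p = 0.00939, 4 day 2 mice). In Ncf1, day 2 mouse 1 stood at 0.15, inside the control range, and the other 3 measured mice lay between -0.89 and -0.77. Members without a call were Mmp9, a gelatinase of the last granules to form (-0.62 ± 0.24, adjusted p = 0.0840), and Csf3r, the receptor for G-CSF, whose difference was positive (0.28 ± 0.14, adjusted p = 0.185). Few genes of the earlier stages were measured. Of 5 genes of granulocyte precursors and primary granules tested, limma called 0, and 0 had an unadjusted p under 0.05. Gfi1, a repressor needed for granulocyte commitment, was at -0.40 ± 0.19 (adjusted p = 0.171). The monocyte transglutaminase F13a1 was at -0.19 ± 0.10 (adjusted p = 0.230).

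The Ltf promoter is shown as that of the late neutrophil gene with the largest change and a promoter entry (GRCm38.p6). Capitals mark ATTGG, the reverse complement of CCAAT, 76 bases before the start, and the GATA letters AGATAA 32 bases before it. The PU.1 letters GAGGAAGT were not found in this window on either strand, and were in 6.67% of the 15 late neutrophil genes with an entry and 2.54% of tested genes.
Ltf (chr9:111019042-111019341, plus strand): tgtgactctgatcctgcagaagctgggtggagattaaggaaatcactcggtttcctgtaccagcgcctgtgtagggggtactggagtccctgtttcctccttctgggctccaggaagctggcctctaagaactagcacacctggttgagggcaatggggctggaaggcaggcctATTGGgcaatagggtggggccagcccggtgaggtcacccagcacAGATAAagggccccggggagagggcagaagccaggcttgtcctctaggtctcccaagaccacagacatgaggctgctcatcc

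Erythroid genes fell in part. Icam4, an adhesion molecule of erythroblasts that binds macrophages, stood at 0.05, -0.01, 0.33, 0.19 and -0.04 in control mice 1 to 5 and -1.55, -1.70, -1.98, -0.59 and -0.22 in day 2 mice 1 to 5. Mice 1 to 3 were far below the controls, while mice 4 and 5 were nearer, and no treated mouse overlapped a control. The difference was -1.31 ± 0.30 (adjusted p = 0.00433). Ppox, the penultimate enzyme of haem synthesis, stood at -0.51, -0.34, 0.48, 0.22 and 0.10 in control and -1.94, -1.73, -1.80, -1.40 and -1.15 on day 2. All treated mice were below all controls, again with mice 4 and 5 nearest. It fell by 1.59 ± 0.21, or 3.02-fold (adjusted p = 4.11e-05). Of 21 genes of the erythroid membrane, surface and globins, 6 fell (7.78% of all features) and 1 rose (median -0.30), and 4 of the 6 falls kept the call: Icam4, the membrane skeleton anchor Ank1 (-1.01 ± 0.25, adjusted p = 0.00761), the Kell blood group protein Kel (-0.94 ± 0.23, adjusted p = 0.00733) and the membrane protein Stom (-0.78 ± 0.18, adjusted p = 0.00449). Btnl10, a butyrophilin-like gene outside the list, fell by 1.72 ± 0.26 (adjusted p = 0.000137). The rise was in Slc2a1, a glucose carrier of many cell types (0.59 ± 0.12, adjusted p = 0.00225). The erythroid transcription factors Klf1 and Gata1 were not called, with Klf1 at -0.60 ± 0.26 in 3 mice a group (adjusted p = 0.136) and Gata1 at -0.24 ± 0.16 (adjusted p = 0.338).

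Of 21 haem and iron genes 3 rose and 3 fell, against 8.12% and 7.78% of all features, and the median was -0.10. Tmem14c, which moves a haem precursor into mitochondria, fell by 1.03 ± 0.20 (adjusted p = 0.00158). Ftl1, the ferritin light chain, rose by 0.62 ± 0.16 (adjusted p = 0.0139, 4 control mice), and Slc40a1, the iron exporter ferroportin, by 0.92 ± 0.18 (adjusted p = 0.00172). Both are also expressed by macrophages that recycle iron, and Slc40a1 is also counted among the rises of the macrophage list. Alas2, which starts haem synthesis in the red cell lineage, was at 0.58 ± 0.21 and was not called (adjusted p = 0.0684). The count of falls was 5 without day 2 mouse 5, and that of rises 5 under scale or quantile normalization. GATA letters, AGATAA or TGATAA on both strands, were in 47.1% of the 17 erythroid genes with a promoter entry and 12.5% of tested genes. Icam4, the erythroid gene with the largest change, has 1 match on the opposite strand, TTATCT in capitals, 43 bases before the start.
Icam4 (chr9:21029182-21029481, plus strand): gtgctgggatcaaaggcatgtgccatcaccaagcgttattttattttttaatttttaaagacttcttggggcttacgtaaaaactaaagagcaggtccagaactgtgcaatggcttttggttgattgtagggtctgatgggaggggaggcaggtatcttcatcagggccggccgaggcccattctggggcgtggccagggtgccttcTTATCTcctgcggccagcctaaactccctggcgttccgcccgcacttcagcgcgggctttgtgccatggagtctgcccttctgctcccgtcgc

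Among genes of B cell precursors the falls were in 2 genes linked to the pre-B cell receptor. Vpreb3, linked to the assembly of the pre-B cell receptor, stood at 0.01, 0.30, 0.27, 0.0014 and -0.0048 in control mice 1 to 5 and -1.53, -1.17, -1.97, -1.30 and -0.998 in day 2 mice 1 to 5. Every treated mouse was far below the lowest control, and mouse 3 was the lowest. It fell by 1.51 ± 0.28 (adjusted p = 0.000999), and Vpreb1, a surrogate light chain of the same receptor, fell by 1.05 ± 0.23 (adjusted p = 0.00378, 4 day 2 mice). They were the 2 called among 7 genes of B cell precursors (7.78% of all features were called lower), all 7 of which had negative differences. The 19 genes of mature B and plasma cells showed no common direction, with 9 above 0 and 10 below it and a median of -0.07. Of these 19, 3 fell and 0 rose, and the 3 falls kept the call. Without day 2 mouse 4 there was 1 rise and without day 2 mouse 5 there were 2, and 8 other settings gave 1 to 4 rises. Mzb1, a chaperone of antibody-secreting cells, was at 0.34, 0.43, 0.79, 0.38 and 0.19 in control mice 1 to 5 and at -1.20, -0.52, -1.03 and -0.85 in the 4 measured day 2 mice (1 to 4). The groups were clearly apart, and the difference was -1.33 ± 0.30 (adjusted p = 0.00485). The other 2 were the B cell survival factors Tnfsf13, known as APRIL (-0.87 ± 0.15, adjusted p = 0.000579), and Tnfsf13b, known as BAFF (-0.71 ± 0.13, adjusted p = 0.000895), which myeloid cells make. Of 13 T and NK cell genes limma called 0, with 2 at an unadjusted p under 0.05.

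Genes of resident macrophages and complement rose. Siglec1, the sialoadhesin of marrow macrophages, stood at 0.03, -0.06, -0.01, -0.41 and 0.26 in control mice 1 to 5 and 0.97, 1.60, 0.78, 1.12 and 1.28 in day 2 mice 1 to 5. All treated mice were above all controls, mouse 2 highest. It rose by 1.19 ± 0.14 (adjusted p = 9.99e-06). C1qb, a chain of the complement component C1q, was at 0.23, 0.09, 0.18, -0.91 and 0.25 in control and 2.30, 1.68, 1.89, 0.70 and -0.04 on day 2. Mice 1 to 3 were far above the controls, mouse 4 was moderately above them, and mouse 5 lay inside their range. Its difference of 1.34 ± 0.31 was called (adjusted p = 0.00555). Fcna, a ficolin of macrophages, was at -0.16, -0.12, -0.17, -0.11 and -0.06 in control and 1.48, 1.07, 1.70, 0.75 and 0.32 on day 2. Mice 1 and 3 were the highest and mouse 5 the lowest, though above every control (1.19 ± 0.19, adjusted p = 0.000365). Serping1, the inhibitor of C1, was far more even, at -0.04, -0.06, -0.05, -0.51 and 0.07 in control and 1.00, 0.96, 1.03, 0.89 and 0.93 on day 2 (1.08 ± 0.12, adjusted p = 5.13e-06), and control mouse 4 was the 1 mouse that stood apart.

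Of the 13 genes of this list, 9 rose (8.12% of all features) and 1 fell, the median was 0.92 against -0.01 for all features, and 8 of the 9 rises kept the call. The other members of C1q rose too, C1qa by 1.27 ± 0.25 (adjusted p = 0.00257, 4 control mice) and C1qc by 0.93 ± 0.20 (adjusted p = 0.00642, 3 mice a group). In C1qa too, day 2 mouse 5, at 0.13, was inside the control range. Adgre1, which encodes the macrophage antigen F4/80, rose by 0.72 ± 0.12 (adjusted p = 0.000397), with 4 treated mice between 0.48 and 0.50 and mouse 4 at 0.72. The single fall, in the lysosomal lipase Lipa, was not kept. The scavenger receptor Msr1 was not called (0.21 ± 0.13, adjusted p = 0.317, 3 mice a group). Of the 15 genes of monocytes and dendritic cells 0 rose and 2 fell (7.78% of all features, median -0.06). The C1qb promoter, that of the called macrophage gene with the largest change and an entry, held none of the 5 motifs searched. It is printed for comparison with the promoters of falling genes.
C1qb (chr4:136886151-136886450, minus strand): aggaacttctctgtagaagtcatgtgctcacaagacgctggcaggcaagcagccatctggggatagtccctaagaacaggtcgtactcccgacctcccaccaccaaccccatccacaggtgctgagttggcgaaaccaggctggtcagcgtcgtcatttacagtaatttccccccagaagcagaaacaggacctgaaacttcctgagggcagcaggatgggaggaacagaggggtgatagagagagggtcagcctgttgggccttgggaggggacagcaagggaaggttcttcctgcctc

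**Figure D2:**
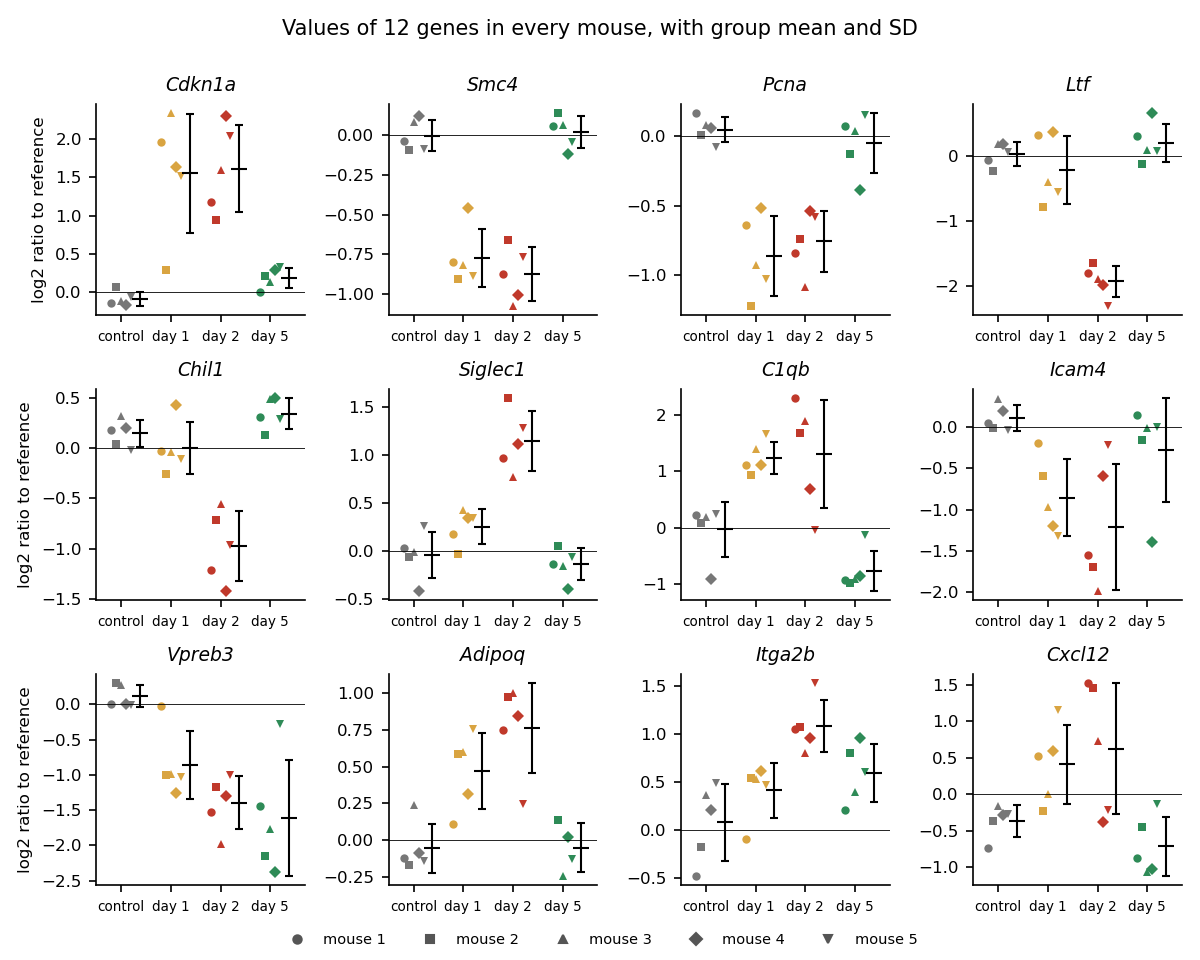
Log2 ratio to the common reference (y axis) of 12 genes in every mouse of the 4 groups (x axis), with the mouse number as the symbol and the mean and SD of the group as a bar to the right. On day 2, Ltf lies between -2.30 and -1.65, below every mouse of the other groups, while C1qb, Icam4 and Cxcl12 separate day 2 mice 1 to 3 from mice 4 and 5.

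Some genes of adipocytes, stroma, vessels and platelets were called higher. Adipoq, the adipocyte hormone adiponectin, stood at -0.12, -0.17, 0.24, -0.08 and -0.14 in control mice 1 to 5 and 0.75, 0.97, 1.00, 0.84 and 0.25 in day 2 mice 1 to 5. Mice 1 to 4 were well above all controls and mouse 5 only just above control mouse 3. It rose by 0.82 ± 0.14 (adjusted p = 0.000605). Angptl4, a lipase inhibitor secreted by adipocytes and other cells, rose by 0.79 ± 0.11 (adjusted p = 8.92e-05), while Pparg, the regulator of adipocyte formation, was not called at 0.72 ± 0.24 (adjusted p = 0.0502, 3 control and 4 day 2 mice). Fstl1, a follistatin-like protein of mesenchymal cells, rose by 0.92 ± 0.12 (adjusted p = 1.93e-05). Cxcl12, the chemokine with which stroma retains blood progenitors, was at -0.74, -0.37, -0.16, -0.28 and -0.27 in control and 1.52, 1.46, 0.72, -0.39 and -0.21 on day 2. Mice 1 to 3 were above all controls, and mice 4 and 5 were inside the control range. Its difference of 0.99 ± 0.31 was called (adjusted p = 0.0308), but not without control mouse 1 or without day 2 mouse 1, 2 or 3, where the adjusted p reached 0.111. Of 27 genes of stroma, bone and matrix 4 rose and 0 fell (median 0.13), against 8.12% of all features called higher, and without day 2 mouse 4 or mouse 5 there were 7 rises.

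Of 11 endothelial genes 3 rose (8.12% of all features) and 0 fell (median 0.15). Plvap, a component of the pores of sinusoidal endothelium, rose by 0.93 ± 0.20 (adjusted p = 0.00274, 4 control mice) and Flt1, a VEGF receptor, by 0.65 ± 0.15 (adjusted p = 0.00479). The endothelial proteoglycan Esm1, outside the list, rose by 1.32 ± 0.27 (adjusted p = 0.00329, 4 mice a group), whereas Cdh5, the adhesion protein of all endothelium, was at 0.14 ± 0.11 and was not called (adjusted p = 0.410). Of 9 megakaryocyte and platelet genes 3 rose (8.12% of all features) and 0 fell (median 0.31), and all 3 kept the call. Itga2b, the platelet integrin that also marks megakaryocyte progenitors, stood at -0.47, -0.18, 0.37, 0.21 and 0.49 in control mice 1 to 5 and 1.06, 1.07, 0.80, 0.96 and 1.53 in day 2 mice 1 to 5. The groups did not overlap, and mouse 5 was the highest. It rose by 1.00 ± 0.18 (adjusted p = 0.000803). The chemokine precursor Ppbp rose by 0.90 ± 0.21 (adjusted p = 0.00513) and the thrombin receptor F2rl2 by 0.81 ± 0.12 (adjusted p = 0.000137, 4 control mice). Pf4 was not called at 0.55 ± 0.27 (adjusted p = 0.175, 3 control and 4 day 2 mice), and was called without day 2 mouse 4 (0.76, adjusted p = 0.0489).

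Among 9 genes of stem and early progenitor cells 1 rose and 0 fell, a share near the 8.12% of all features called higher. Meis1, a homeobox gene of stem cells and megakaryocyte progenitors, was at 0.03, -0.10, 0.13, -0.08 and 0.18 in control mice 1 to 5 and 0.37, 0.61, 0.57, 0.38 and 0.51 in day 2 mice 1 to 5. The groups did not overlap, and the difference was 0.45 ± 0.12 (adjusted p = 0.0133). Hoxa7 (0.34 ± 0.12, adjusted p = 0.0532) and Mecom (0.31 ± 0.11, adjusted p = 0.0600), which also act in early progenitors, were not called. The count of rises was 3 without day 2 mouse 2 or mouse 5, under scale or quantile normalization or with values required in all mice, and 2 without control mouse 2 or 3 or day 2 mouse 4, with the replicate number as a block and in several other settings.

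**Figure D3:**
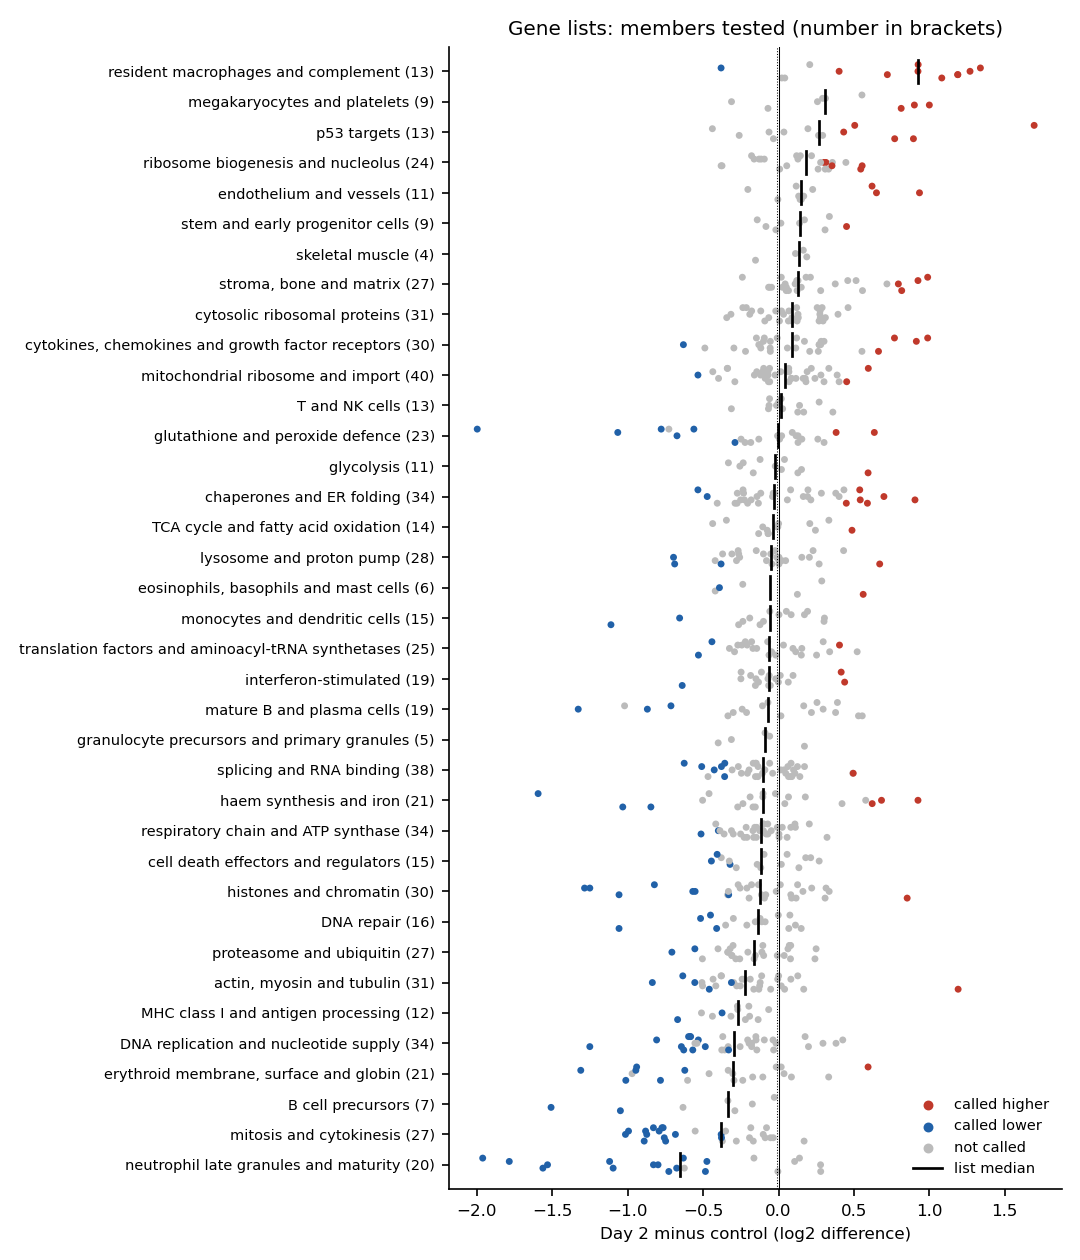
Day 2 minus control on the log2 scale (x axis) for the tested members of 37 gene lists (y axis, number tested in brackets), with a point per gene coloured by its call, a black bar at the list median and a dotted line at the median of all features, -0.01. Late neutrophil, mitosis, B cell precursor and erythroid genes have the lowest medians, and resident macrophages and complement the highest, at 0.92.

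Some peroxide and glutathione enzymes fell, while the share called higher was near that of all features. Mgst3, a microsomal glutathione transferase, stood at -0.11, -0.15, 0.20, 0.06 and 0.29 in control mice 1 to 5 and -1.96, -1.86, -2.29, -1.54 and -2.06 in day 2 mice 1 to 5. The treated mice were all far below the lowest control, and mouse 3 was the lowest. It fell by 2.00 ± 0.25, or 4.00-fold (adjusted p = 1.93e-05), the largest fall of any gene with a symbol. Its relative Mgst1 was at 0.37, 0.22, 0.51, 0.78 and 0.03 in control and -0.75, -0.42, -0.63, -1.02 and -0.60 on day 2. The groups did not overlap, and it fell by 1.07 ± 0.13 (adjusted p = 1.93e-05). Gpx1, the cytosolic glutathione peroxidase, fell by 0.67 ± 0.12 (adjusted p = 0.000574). Against these, the secreted peroxidase Gpx3 rose by 0.64 ± 0.13 (adjusted p = 0.00245). Peroxiredoxin 1, encoded by Prdx1, rose by 0.38 ± 0.12 (adjusted p = 0.0278), a call that was lost under scale and quantile normalization and without control mouse 2 or 5 or day 2 mouse 2 or 5, where the adjusted p reached 0.175. Of 23 members 2 rose and 6 fell, against 8.12% and 7.78% of all features, with a median of -0.01, and without day 2 mouse 1 there were 3 falls.

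Some protein folding genes were called higher, while falls were no more frequent than among all features. Of 34 chaperones and folding enzymes of the cytosol and endoplasmic reticulum 6 rose and 2 fell, against 8.12% and 7.78% of all features, with a median of -0.03 and 16 members above 0 and 18 below. The 6 rises kept the call, 3 of them having values in all mice. The lectin chaperone Calr rose by 0.54 ± 0.12 (adjusted p = 0.00469), the disulphide isomerases Pdia3 by 0.45 ± 0.13 (adjusted p = 0.0170) and Pdia4 by 0.90 ± 0.18 (adjusted p = 0.00469, 3 mice a group), and the prolyl isomerase Fkbp1a by 0.59 ± 0.12 (adjusted p = 0.00246, 4 control mice). Ero1a, the oxidase that recharges the isomerases, fell by 0.53 ± 0.11 (adjusted p = 0.00281). The other fall was lost without day 2 mouse 1 or mouse 3.

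Tap1, a subunit of the peptide transporter for MHC class I, was at 0.66, 0.25, 0.87 and 0.90 in control mice 1, 2, 4 and 5 and -0.09, 0.13, 0.15, 0.01 and -0.21 in day 2 mice 1 to 5. Control mouse 2 was the closest to the treated mice, and the groups did not overlap. It fell by 0.67 ± 0.14 (adjusted p = 0.00232). All 12 genes of MHC class I and antigen processing that were tested had negative differences, with a median of -0.27, but 2 of them were called (7.78% of all features were called lower). The other was the immunoproteasome subunit Psmb10 at -0.37 ± 0.10 (adjusted p = 0.0161), which was not called without day 2 mouse 1 (adjusted p = 0.0604) and was at -0.60 under quantile normalization. Psmb4, a subunit of every proteasome, fell by 0.71 ± 0.15 (adjusted p = 0.00257). It was 1 of 2 falls among 27 proteasome and ubiquitin genes, a share near the 7.78% of all features, and 0 rose. Of 19 interferon-stimulated genes 2 rose and 1 fell, against 8.12% and 7.78% of all features (median -0.07). The rises were in Ifih1, a sensor of double-stranded RNA (0.44 ± 0.12, adjusted p = 0.0159), and Oasl2 (0.42 ± 0.13, adjusted p = 0.0346), and neither kept the call. There was 1 rise without control mouse 1, 2 or 5 or day 2 mouse 3 and 0 without day 2 mouse 1. The fall was in Irf9, which carries the interferon signal to DNA (-0.64 ± 0.15, adjusted p = 0.00598, 4 mice a group). Of 31 cytosolic ribosomal proteins limma called 0, with 2 at an unadjusted p under 0.05 and a median of 0.09. Several ribosomal protein probes looked saturated, among them Rps23 on 8 control and 2 day 2 arrays, Rps6 on 7 and 0 and Rps13 on 5 and 1. Values at such a limit can hide a fall, so the lack of calls does not show that these RNAs were unchanged. Of 24 genes of ribosome biogenesis 5 rose (8.12% of all features) and 0 fell (median 0.18). None of these 5 calls was kept, and without day 2 mouse 3 there were 0. The nucleolar helicase Ddx21 was at 0.54 ± 0.16 (adjusted p = 0.0244), and its call was lost without control mouse 3 or day 2 mouse 3 or 4 (adjusted p up to 0.0603).

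Actb, the beta-actin gene often taken as a constant standard, was not constant here. It stood at -0.21, -0.26, 0.32, -0.56 and -0.73 in control mice 1 to 5 and 1.04, 0.73, 1.56, 0.50 and 0.68 in day 2 mice 1 to 5. All treated mice were above all controls, although the controls themselves spread widely. It rose by 1.19 ± 0.24, or 2.28-fold (adjusted p = 0.00194, mean of 2 probes). Its probes looked saturated on 2 of the control arrays, and without these values the difference was 1.20. Of the 31 genes of actin, myosin and tubulin, Actb was the 1 called higher and 5 were called lower (7.78% of all features). Dstn, which severs actin filaments, fell by 0.84 ± 0.18 (adjusted p = 0.00331) and Arpc5, of the complex that branches them, by 0.64 ± 0.17 (adjusted p = 0.0123). Those 2 falls were the ones that kept the call. The count of falls was 2 without day 2 mouse 1 or mouse 3, 3 without control mouse 3, 4 or 5, and 8 without day 2 mouse 2, and it was 10 with the arrays fitted singly and the mouse as a random block. Arsb, a lysosomal sulphatase, fell by 0.69 ± 0.12 (adjusted p = 0.000652). It was 1 of 3 falls (7.78% of all features) among 28 genes of lysosomes and the proton pump, of which 1 rose. Of 30 cytokines, chemokines and growth factor receptors 4 rose and 1 fell, against 8.12% and 7.78% of all features (median 0.09). The 4 rises include Cxcl12, also counted with stroma, and the fall, in Cxcr4, was not kept. The rises that kept the call were in Ccl2 and Ccr9. The monocyte attractant Ccl2 rose by 0.66 ± 0.18 (adjusted p = 0.0168), with day 2 mice 4 and 5 the highest at 1.32 and 1.01. The chemokine receptor Ccr9 rose by 0.77 ± 0.13 (adjusted p = 0.000365).

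Of the 25 largest rises, 8 that were in none of the lists are named next, a choice made after their values were seen. They were the calcium-binding annexin Anxa4 (1.10 ± 0.18, adjusted p = 0.000280), the vesicle protein Syt9 (1.06 ± 0.21, adjusted p = 0.00149), the sorting nexin Snx24 (1.11 ± 0.21, adjusted p = 0.00115), the muscle regulator Myf6 (1.01 ± 0.19, adjusted p = 0.00159, 4 control mice), the testis tubulin Tuba3a (1.00 ± 0.24, adjusted p = 0.00649), the fucosyltransferase Fut1 (0.99 ± 0.22, adjusted p = 0.00336), Stimate, a regulator of calcium entry (0.96 ± 0.18, adjusted p = 0.000913), and Hcrt, the neuropeptide orexin (0.94 ± 0.16, adjusted p = 0.000706, 4 control mice). Anxa4 stood at -0.18, -0.22, -0.21, -0.38 and -0.33 in control mice 1 to 5 and 1.34, 0.33, 1.06, 0.84 and 0.60 in day 2 mice 1 to 5, and Syt9 at -0.33, -0.34, 0.05, -0.09 and -0.44 and 1.07, 0.32, 1.37, 0.79 and 0.63. For Anxa4 and Syt9, day 2 mice 1 and 3 were the highest and mouse 2 the lowest, with no overlap with controls. Maged1 and Tmem176a, which lie among the same 25, rose by 1.06 ± 0.16 (adjusted p = 0.000232, 4 day 2 mice) and 0.97 ± 0.12 (adjusted p = 1.93e-05). Of the 25 largest falls, the phosphatase Ptprf (-1.14 ± 0.20, adjusted p = 0.000724), the protocadherin Pcdh8 (-1.06 ± 0.16, adjusted p = 0.000137) and the zinc finger gene Zfand6 (-1.12 ± 0.16, adjusted p = 8.92e-05) were in none of the 37 lists. Of 4 skeletal muscle genes tested limma called 0, with 0 at an unadjusted p under 0.05 and differences between -0.15 and 0.19.

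The treated mice differed in how far they stood from the controls. Over the 472 genes called higher and measured in all 5 day 2 mice, the median log2 ratio was 0.66, 0.19, 0.52, 0.49 and 0.35 in day 2 mice 1 to 5, against -0.23 to -0.04 in the controls. Day 2 mouse 2 was the lowest of the 5 for 311 of these genes. Over the 450 genes called lower the medians were -0.63, -0.30, -0.53, -0.38 and -0.31 in day 2 mice 1 to 5, against 0.02 to 0.14 in the controls, and mouse 2 was the nearest to the controls for 159 and mouse 5 for 135. By these medians mouse 1 stood furthest out in both directions. The interquartile range over all genes measured was 0.53, 0.34, 0.51, 0.39 and 0.31 in day 2 mice 1 to 5, so mouse 1 also had the widest values overall. Whether the order of the medians goes beyond this general spread was not tested. The same order did not hold for every group of genes: Cdkn1a and Ccl2 were highest in mice 4 and 5, in which C1qb, Cxcl12 and Icam4 were closest to the controls. Why the mice differ was not tested.

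**Figure D4:**
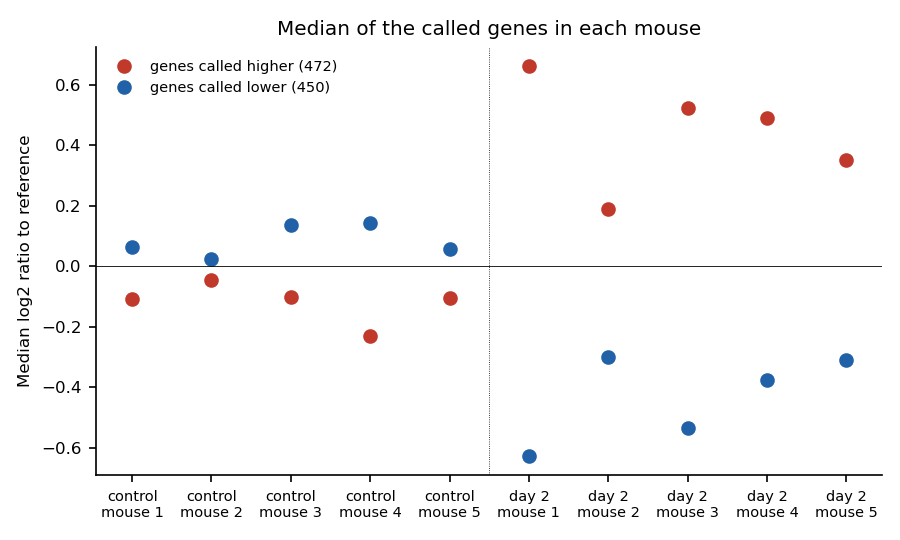
Median log2 ratio to the reference (y axis) in each control and day 2 mouse (x axis) over the 472 genes called higher (red) and the 450 called lower (blue) that had values in all 5 day 2 mice. These genes were chosen for the difference between the groups, so the distance between the groups is not informative. Within the day 2 group, mouse 1 lies furthest from 0 and mouse 2 is the lowest for the higher genes. The medians are not adjusted for the general spread of values in each mouse.

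The direct contrast of day 2 with day 1 called 111 of 5915 features (1.88%). Of the genes named here, 14 were among them. Many of these genes were chosen by their day 2 values, which this contrast shares. That choice favours differences of the same sign as those against control. Of the 20 late neutrophil genes, 7 were called lower on day 2 than on day 1 and 0 higher. Anxa1 (-0.90 ± 0.27, adjusted p = 0.0901) and Ncf1 (-0.35 ± 0.21, adjusted p = 0.536) were not called. Among the 7, the differences were -1.72 ± 0.19 (adjusted p = 2.20e-05) for Ltf, -1.61 ± 0.23 (adjusted p = 0.000397) for Ngp, -1.29 ± 0.16 (adjusted p = 6.48e-05) for Cd177, -0.97 ± 0.14 (adjusted p = 0.000417) for Chil1 and -1.22 ± 0.28 (adjusted p = 0.0265) for S100a9. Mgst1 (-0.71 ± 0.13, adjusted p = 0.00585), the BAFF gene Tnfsf13b (-0.51 ± 0.13, adjusted p = 0.0390), Zfand6 (-0.84 ± 0.16, adjusted p = 0.00614) and Nusap1 (-0.66 ± 0.14, adjusted p = 0.0114) also lay further down on day 2. Siglec1 (0.90 ± 0.14, adjusted p = 0.000847), Calr (0.58 ± 0.12, adjusted p = 0.0114), Prdx1 (0.78 ± 0.12, adjusted p = 0.000417) and Ddx21 (0.63 ± 0.16, adjusted p = 0.0423) were higher on day 2 than on day 1. F13a1, which was not called against control, was higher than on day 1 as well (0.71 ± 0.10, adjusted p = 0.000417). Cdkn1a (0.06 ± 0.26, adjusted p = 0.980), Serping1 (0.09 ± 0.12, adjusted p = 0.873) and Smc4 (-0.10 ± 0.10, adjusted p = 0.781) did not pass this contrast. With the day 1 and day 2 mice fitted alone, 52 features were called, and 9 of the 14 were among them. The other 5 were Nusap1, S100a9, Tnfsf13b, Calr and Ddx21, with adjusted p values of 0.0750, 0.0578, 0.0832, 0.0899 and 0.0832.

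The contrast of day 5 with day 2 called 1115 of 5409 features (20.6%). It uses the same day 2 values by which many of the genes named here were chosen. That choice favours differences opposite in sign to those against control. Cdkn1a was -1.42 ± 0.26 (adjusted p = 0.000489) relative to day 2, Ltf 2.13 ± 0.19 (adjusted p = 1.01e-07), Smc4 0.90 ± 0.10 (adjusted p = 1.60e-06), C1qb -2.07 ± 0.31 (adjusted p = 5.94e-05) and Mgst3 1.60 ± 0.25 (adjusted p = 9.24e-05), all called. Hmgn2 rose by 1.94 ± 0.18 (adjusted p = 1.49e-07) and Tnfsf13 by 1.99 ± 0.15 (adjusted p = 1.20e-08). The B cell genes Vpreb3 (-0.21 ± 0.28, adjusted p = 0.644), Vpreb1 (-0.06 ± 0.23, adjusted p = 0.876) and Mzb1 (-0.62 ± 0.30, adjusted p = 0.158) were not called in this contrast, and their differences were negative.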

How the data were processed

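The values the authors deposited, 1 per probe for each of 40 arrays, were used as log2 ratios of sample to common reference. The sources used here do not state the base, which was taken as 2, and a natural logarithm would scale every difference alike. The fold values and the counts of features at least 2-fold apart rest on this choice and would change with another base. The sources used here do not give the centring step, the background correction or the rule for blank values. The number of arrays and mice limits the precision. Of 13443 probes, 10032 had a single gene symbol, 170 several and 3241 none, from GEO's platform annotation, and 10029 were matched to RefSeq.

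The 2 arrays of a mouse were averaged, then probes of a gene, and features with values in at least 3 of 5 mice of each group were kept. Group means of all 20 mice were fitted in limma 3.58.1 (R 4.3.3) with moderated tests. Benjamini-Hochberg adjustment was over all features, with a threshold of 0.05. Each p-value sets a difference of group means against the spread between mice, pooled over the 4 groups and moderated across features. The code was tested on simulated data. Alternatives covered normalization, filters, array and probe handling, moderation, a replicate block and leaving out each mouse.

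The comparison, the 37 gene lists and the genes named were chosen with earlier results of these data known. Genes open to naming were set by rule. They were the 25 largest called rises and falls with at least 4 mice a group and all day 2 mice above or all below the control mean. Up to 8 called and 3 uncalled members of each list and the cell type markers were added. The text names a part of these genes, chosen with their values known. Members were updated to current symbols.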

Additional observations from a re-analysis of the deposited data

Results flagged for a closer look

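Single mice stood apart from the other mice of their group in 15 of the 219 groups of values examined, and chance alone marks about 1 group in 20. Control mouse 4 accounted for 5 of them, being high for Casp2 (0.3963) and low for C1qb (-0.9112), Serping1 (-0.5092), Fstl1 (-0.3875) and Tuba3a (-1.212). Control mouse 3 was high for Cks2 (1.09), Anxa1 (1.137) and Adipoq (0.238), control mouse 5 was low for Alas2 (-0.9338), and control mouse 2 was low for Arsb (-0.1639). On day 2, mouse 5 was high for H2ax (-0.1922), mouse 4 high for Adgre1 (0.7177) and mouse 3 high for Pcdh8 (-0.4889). Mouse 1 was high for Ncf1 (0.149, of 4 mice) and mouse 2 low for Myf6 (-0.1649), although above the controls.

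The contrast of day 2 with day 1, tested directly in limma, was called for 14 of the genes named. The log2 difference was -1.72 for Ltf, -1.608 for Ngp, -1.29 for Cd177, -1.216 for S100a9 and -0.9726 for Chil1, all late neutrophil genes. It was -0.84 for Zfand6, -0.7146 for Mgst1, -0.6642 for Nusap1 and -0.5141 for Tnfsf13b. It was 0.8959 for Siglec1, 0.7835 for Prdx1, 0.7127 for F13a1, 0.6312 for Ddx21 and 0.5778 for Calr.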

How the results depend on the processing

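The count of genes called was 586 to 1053 when 1 mouse was left out, that of genes higher 302 to 542, of genes lower 284 to 511 and of genes at least 2-fold apart 49 to 78. The lowest of the first 3 counts came without day 2 mouse 1 and that of the fourth without day 2 mouse 3, where the count of genes lower was 312. In the other settings 935 to 1375 genes were called, and the genes at least 2-fold apart numbered 37 after scale normalization. Day 2 against day 1 had 52 calls with only the mice compared. With the replicate number as a replicate block 948 genes were called, 880 of them shared with the 991, and mice of the same number did not deviate together (r = -0.061, -0.087, 0.067, -0.023 and 0.067 across genes for numbers 1 to 5), so the numbers were not taken as pairs. Of the 991 calls 500 were kept in all 24 settings in which they were tested, and no called gene changed sign in any of them. Blank values limited the comparison to 6231 features, and leaving out saturated-looking values, by a rule added after seeing the data, gave 1009 calls over all features.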
